A study of Mus musculus with 4 samples.

Results

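The cells described here are T cells of a follicular helper sort that carried the transcript of Foxp3. They were 64 of 3956 cell barcodes in the gene expression library of that sort, and of 11602 barcodes in both gene expression libraries of the series. A member had 500 or more detected genes, at most 10% mitochondrial unique molecular identifiers (UMIs, each standing for 1 captured RNA molecule), no Cd79a UMI, no Cd8b1 UMI and at least 1 Foxp3 UMI. The members were thus chosen by their measured Foxp3, Cd79a and Cd8b1 UMIs. The reference was the 2952 cells that passed the same filters with no Foxp3 UMI and at least 1 UMI of Cd3d, Cd3e or Cd3g. Foxp3, Cd79a, Cd8b1 and the CD3 genes made these groups, so their values are descriptions and were not tested.

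All mice had received 10 μg of Alternaria alternata extract, a fungal allergen source, and 25 μg of NP-OVA, a haptenated protein antigen, through the nose, and the mediastinal lymph node was taken on day 7. The Tfh sort came from C57BL/6 mice and was gated on TCRβ+ CD4+ CD44+ PD-1+ CXCR5+ cells. A second sort, from C57BL/6 4GET mice that report Il4 transcription by GFP, was gated on TCRβ+ CD4+ CD44+ GFP+ cells. Every sorted cell was restimulated with PMA and ionomycin for 30 min before capture, and no unstimulated or unimmunized sample was analysed here. Cells of each of 3 mice per sort were stained with their own hashtag antibody and pooled in 1 lane, so the replicate is the mouse, and each mouse gave both Foxp3+ and Foxp3- cells.

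Foxp3 is the transcription factor that defines regulatory T cells. Regulatory cells that enter B-cell follicles share CXCR5, PD-1 and Bcl6 with follicular helper cells and restrain the germinal centre response. They make little IL-2 themselves, carry the high-affinity IL-2 receptor chain CD25 (Il2ra) to varying degrees, and act through CTLA-4, IL-10 and a decoy receptor for IL-1 (Il1r2).

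The 3 mice gave 33, 21 and 9 members and 1061, 1156 and 648 reference cells, and 1 further member with 25950 UMIs had no mouse and entered no sum. Foxp3 (chrX:7573644-7595245, plus strand, GRCm38) was sparsely captured, with 190, 245 and 194 CPM in the members of mice 1, 2 and 3 (CPM is a gene's UMIs over all UMIs of a sum of cells, scaled to a fixed total). Of the 64 members 51 had 1 Foxp3 UMI, 9 had 2, 2 had 4 and 2 had 5, so most members lie at the threshold of the rule and the 2952 reference cells lie just outside it at 0. All 63 members with a mouse had a CD3 UMI, and 36 had a Cd4 UMI. No member barcode was shared with the other library, where 1 barcode in all was shared. Members were deeper than the reference, with a median of 4684 UMIs against 2751. Cells with 2 or more UMIs summed over Mki67, Top2a, Birc5, Ube2c and Cdk1, called cycling here, were 33.3% of members and 12.9% of the reference. Among reference cells matched to members for depth they were 33.9%. One member of mouse 1 held 50750 UMIs, which was 20.5% of the UMIs of that mouse's members.

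Among T cells, Foxp3+ cells made up 3.02% in mouse 1 (33 of 1094, Wilson 95% interval 2.16 to 4.21%). The share was 1.78% in mouse 2 (21 of 1177, 1.17 to 2.71%) and 1.37% in mouse 3 (9 of 657, 0.722 to 2.58%). The mean was 2.06 ± 0.86% (SD, n = 3 mice), and the intervals of all 3 mice overlap one another. The same count was made in cells with Cd79a, a B-cell gene, which the rule leaves out. There 7 of 722 cells had a Foxp3 UMI (0.970%, 0.470 to 1.99%) at a median of 2428 UMIs, against 2770.5 in T cells. Cd79a+ cells without any CD3 UMI had none in 364, which allows up to 1.04% at the upper Wilson bound. All Cd79a+ cells with Foxp3 and a mouse thus carried a CD3 UMI, and Ctla4 was found in 7 and Ikzf2 in 6 of the 8 Cd79a+ Foxp3+ cells, so the Cd79a+ share includes cells with T-cell transcripts and is no measure of free RNA alone. When every cell was thinned to 2000 UMIs and shallower cells were left out, the share was 0.885% in T cells (21 of 2373, 0.580 to 1.35%) and 0.617% in Cd79a+ cells (3 of 486, 0.210 to 1.80%). At equal depth the 2 shares lay within counting error of each other, so a difference between T cells and Cd79a+ cells was not detectable at that depth.

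**Figure D1:**
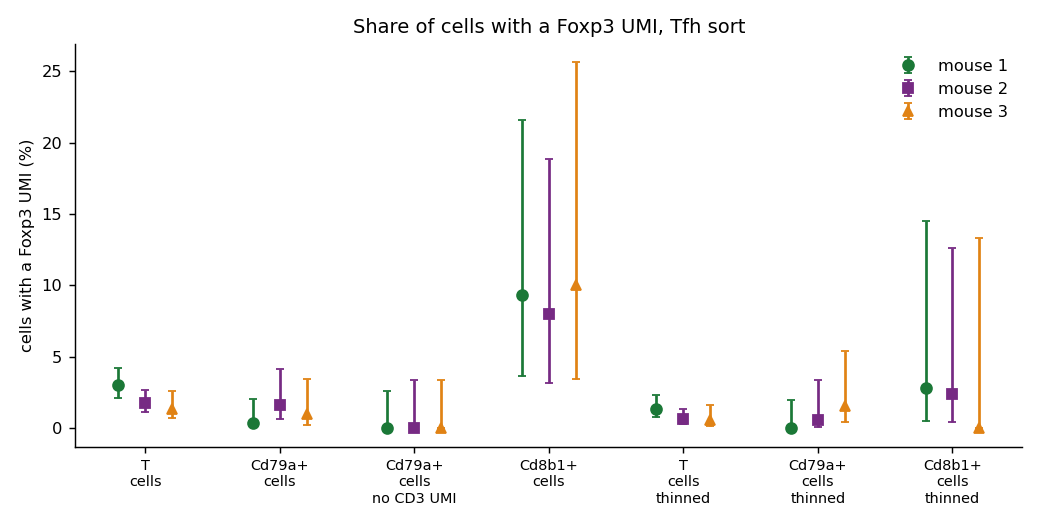
The y axis gives the percentage of cells with a Foxp3 UMI in the Tfh sort, per mouse (points) with Wilson 95% intervals (bars, counting error only). T cells sit at 3.02, 1.78 and 1.37%, and after thinning to 2000 UMIs their intervals overlap those of Cd79a+ cells.

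The other regulatory markers were measured independently of the rule. No UMI of Il2ra, Ikzf2, Penk or Ccr8 was found in 9 of 63 members (14.3%), and none in 96 of 189 reference cells matched for depth within each mouse (50.8%). Il2ra was found in 25 members (39.7%, against 8.99% of the matched reference) and Ccr8 in 27 (42.9% against 7.41%). Ikzf2 was found in 49 (77.8%) and was also common in the matched reference (40.7%), and Penk was found in 6 (9.52% against 2.12%). Il2ra and Ikzf2 were found together in 24 members. The follicular genes Cxcr5, Bcl6 or Pdcd1 were found in 43 of 63 members (68.3%), where the matched reference had 72.0%. The regulatory part of the cells' name thus rests on transcripts and the follicular part on the protein gate of the sort.

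UMIs were summed per mouse and group and compared with edgeR's quasi-likelihood test with the mouse as a block. A sum needed 10 or more cells, so the 9 members of mouse 3 did not enter, and the contrast rests on mice 1 and 2 with 1 residual degree of freedom. Of 8808 genes tested, 453 passed a Benjamini-Hochberg adjusted p of 0.05 (5.14%), 197 higher (2.24%) and 256 lower (2.91%) in Foxp3+ cells. With sums of 5 or more cells, a setting added after the data were seen that brings in mouse 3, 271 of 7494 genes passed (3.62%), 119 higher (1.59%) and 152 lower (2.03%). Of the 271, 258 were also among the 453 and all 258 had the same direction. That fit called 48 genes without mouse 1 and 43 without mouse 2. Without cells above 20000 UMIs, at 10 or more cells per sum, 258 genes passed, with Il2ra at 3.14 and Il2 at -2.99 on the log2 scale. Among members with exactly 1 Foxp3 UMI 121 passed, with Il2ra at 2.64 and Il2 at -2.78. An SE below is the absolute log2 difference over the square root of the test's F statistic, whose variance estimate borrows from all genes. With 1 residual degree of freedom, the SE and p-value of this contrast do not measure the spread between mice. That spread is seen in the levels per mouse, given below in CPM in the order mouse 1, 2, 3.

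Genes of regulatory T-cell identity rose together. The gene lists, here and below, were chosen with earlier results of these data known, and some genes are in more than 1 list. Their counts and medians are thus descriptions and no independent support. Of 17 tested genes of a regulatory core list, 10 rose and none fell, with a median log2 difference of 1.29 against -0.08 over all genes tested. Il2ra (chr2:11642807-11693193, GRCm38) stood at 121, 204 and 43.2 CPM in members and at 19.6, 12.5 and 7.29 CPM in the reference. Every mouse was higher in Foxp3+ cells and the groups did not overlap, with a log2 difference of 3.10 ± 0.32 (SE, edgeR adjusted p = 3.5e-19). Ikzf2, which encodes the Foxp3 partner Helios, stood at 480, 442 and 540 CPM against 177, 137 and 151 CPM (log2 difference 1.43 ± 0.17, adjusted p = 6.0e-15). Its members' values were close to each other and all above the reference. Ctla4, an inhibitory receptor that strips CD80 and CD86 from antigen-presenting cells, stood at 1162, 1006 and 496 CPM against 415, 376 and 404 CPM (1.34 ± 0.14, adjusted p = 4.2e-20). Mouse 3 was the lowest of the members and still above all 3 reference values.

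The tumour necrosis factor receptors that mark activated regulatory cells followed the same order. Tnfrsf9 (4-1BB) stood at 355, 777 and 345 CPM against 121, 68.6 and 79.0 CPM, a log2 difference of 2.37 ± 0.18. Tnfrsf18 (GITR) rose by 1.29 and Tnfrsf4 (OX40) by 1.08 on the log2 scale, and these were the 3 called of 12 tested genes of that family. Capg, an actin-capping protein, stood at 412, 507 and 388 CPM against 96.6, 71.8 and 73.3 CPM (2.30 ± 0.18). Lrrc32 (GARP), which holds latent TGF-β on the cell surface, had 19 UMIs in 13 members, none of them in mouse 3 (log2 difference 4.38 ± 0.76). Cd81, a tetraspanin named after its values were seen, stood at 190, 196 and 194 CPM against 58.4, 49.3 and 46.2 CPM. Nrp1, at 92.8, 57.3 and 43.2 CPM against 55.8, 57.7 and 64.0 CPM, did not pass the test (adjusted p = 0.64), nor did Izumo1r (adjusted p = 0.925).

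Ccr8 and Penk were less even. Ccr8, a chemokine receptor of activated regulatory cells, stood at 157, 106 and 0 CPM against 18.3, 12.9 and 13 CPM (2.97 ± 0.33), so that mouse 3 lay below its own reference. Penk, which encodes the opioid precursor proenkephalin, had 42 UMIs in 6 members, at most 17 in 1 cell (88.8, 147 and 43.2 CPM against 24.7, 10.7 and 4.05 CPM, 2.46 ± 0.36). Among members with exactly 1 Foxp3 UMI its log2 difference was -0.07 (adjusted p = 0.999), and 35 of the 42 UMIs were in members with 2 or more.

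**Figure D2:**
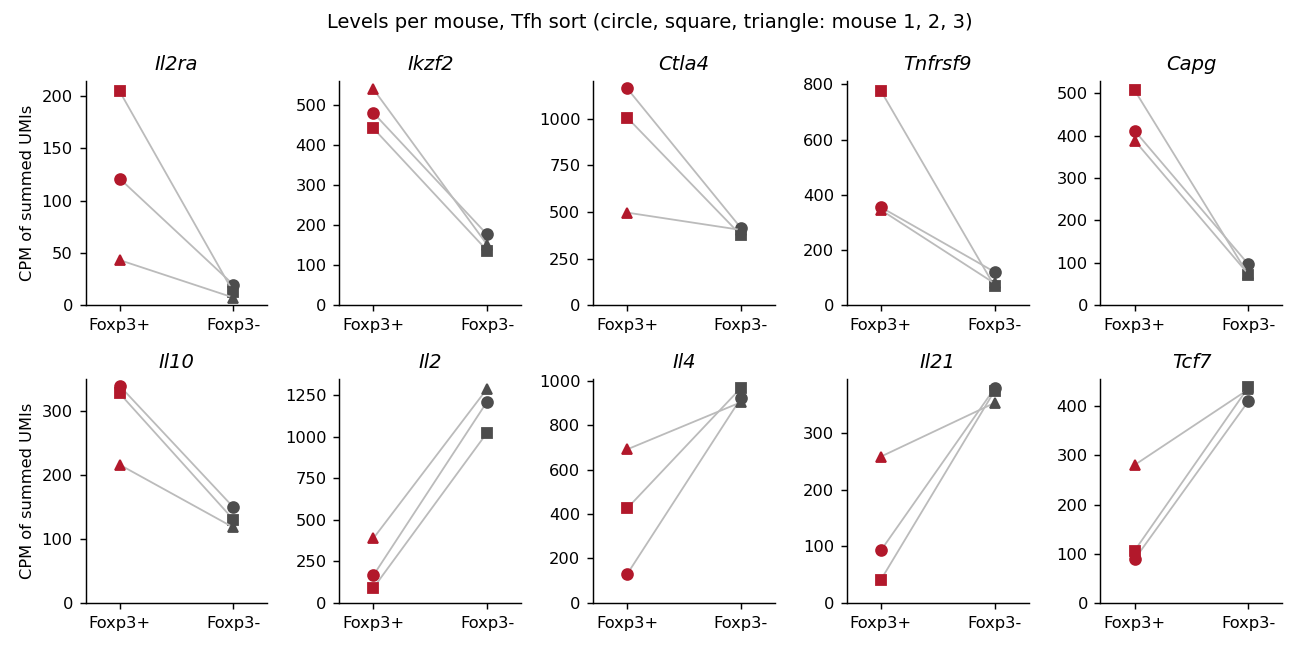
Each panel gives 1 gene's CPM of summed UMIs (y axis, from 0) in Foxp3+ and Foxp3- T cells of the Tfh sort, with lines joining the sums of 1 mouse. Il2ra, Ikzf2, Ctla4, Tnfrsf9, Capg and Il10 were higher and Il2, Il4, Il21 and Tcf7 lower in Foxp3+ cells of all 3 mice.

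Of 11 tested genes of suppressive function 5 rose and none fell, where 2.24% of all genes tested rose. With sums of 5 or more cells, 4 of 10 rose and none fell, where 1.59% of all genes tested rose. At matched depth 2 of 9 rose, with exactly 1 Foxp3 UMI 2 of 11 and without cycling cells 5 of 11, and none fell. The list median was 0.73, and 0.38 with exactly 1 Foxp3 UMI. Il10 stood at 339, 327 and 216 CPM against 149, 130 and 118 CPM (1.13 ± 0.18, adjusted p = 1.5e-07) and was carried by 21 members. Il1r2 stood at 186, 303 and 86.3 CPM against 62.4, 45.9 and 60.0 CPM (1.97 ± 0.24). Lag3 and Tgfb1 did not pass the test. Of 13 tested genes of IL-2 receptor signalling 4 rose: Il2ra, Il2rb (0.78), and the STAT5 targets Cish (1.52) and Socs2 (2.29). None fell, and the list median was -0.15, against -0.08 over all genes tested. With sums of 5 or more cells 3 of 13 rose, and at matched depth 1 of 12. Il2rg, Jak1, Jak3, Stat5a and Stat5b did not pass.

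RefSeq promoters (GRCm38.p6) of 3 genes that rose and of Il2, which fell, are shown as examples of genes that moved in opposite directions, chosen after the windows had been searched. Each run is the 250 bases before the transcription start, and capitals mark matches on either strand to the STAT motif TTCNNNGAA or the NFAT core GGAAA.
Il2ra chr2:11642542-11642791, strand +: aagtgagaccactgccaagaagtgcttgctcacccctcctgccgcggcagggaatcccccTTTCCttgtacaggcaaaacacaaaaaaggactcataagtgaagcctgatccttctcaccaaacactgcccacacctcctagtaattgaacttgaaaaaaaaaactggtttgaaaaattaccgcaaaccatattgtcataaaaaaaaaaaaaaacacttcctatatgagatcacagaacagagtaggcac
Ctla4 chr1:60908775-60909024, strand +: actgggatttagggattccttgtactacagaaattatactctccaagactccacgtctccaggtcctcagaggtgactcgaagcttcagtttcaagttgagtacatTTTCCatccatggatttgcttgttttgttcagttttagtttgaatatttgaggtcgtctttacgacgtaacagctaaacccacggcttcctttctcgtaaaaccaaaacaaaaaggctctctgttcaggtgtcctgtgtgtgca
Tnfrsf9, second start chr4:150927749-150927998, strand +: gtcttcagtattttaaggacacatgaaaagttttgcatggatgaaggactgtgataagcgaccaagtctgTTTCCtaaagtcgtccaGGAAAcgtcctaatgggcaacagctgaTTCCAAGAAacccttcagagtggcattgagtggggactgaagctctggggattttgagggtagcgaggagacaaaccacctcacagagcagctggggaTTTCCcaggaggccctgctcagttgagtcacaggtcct
Il2 chr3:37125955-37126204, strand -: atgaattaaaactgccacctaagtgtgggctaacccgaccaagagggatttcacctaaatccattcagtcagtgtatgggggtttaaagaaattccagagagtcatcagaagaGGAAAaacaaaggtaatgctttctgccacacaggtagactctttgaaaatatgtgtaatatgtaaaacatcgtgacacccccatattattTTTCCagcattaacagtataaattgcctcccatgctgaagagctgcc
The STAT motif is held by 7.02% of 32851 RefSeq promoter windows of that length and the NFAT core by 55.6%. Of the 4 windows shown, each held the NFAT core and the Tnfrsf9 window also the STAT motif. Of the other windows searched, that of Capg held neither and that of Il1r2 only the STAT motif. Those of the first Tnfrsf9 start, of Il21 and of the first Foxp3 start held only the NFAT core. The second Foxp3 start held both. A forkhead motif, TGTTTAC, was also searched and was found in none of these windows (3.17% of all windows hold it).

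Helper cytokines fell together. Of 19 tested, 12 fell and 1, Il10, rose, with a median log2 difference of -2.04 (-1.64 with genes at 0 counts set to their bound). Il2, the T-cell growth factor, stood at 165, 90.0 and 388 CPM in members and at 1211, 1024 and 1289 CPM in the reference. The groups did not overlap, and the log2 difference was -3.16 ± 0.19 (adjusted p = 2.0e-55). Il4 stood at 129, 425 and 691 CPM against 920, 967 and 903 CPM (-2.10 ± 0.17), with the 3 mice far apart. Il21, the cytokine by which follicular helpers drive B cells, stood at 92.8, 40.9 and 259 CPM against 380, 375 and 354 CPM (-2.46 ± 0.23). In both, mouse 3 had the highest member value and was still under its reference. Ifng stood at 12.1, 8.18 and 237 CPM against 159, 91.1 and 126 CPM, so mouse 3 went the other way, and the log2 difference was -3.75 without its members and -1.85 with them, called in both fits.

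Some effector cytokines were at or near 0 UMIs in members, while Il4 and Tnf (139 UMIs in 50 members) were not. Il13 had 2 UMIs in all members, 25.9-fold lower than the reference with a 95% counting interval of 7.14 to 214. Il3 had none, at least 9.46-fold lower by a floor of 3 counts over the group. Il22, Il5 and Ccl17 also had none, at least 4.74-fold, 2.28-fold and 3.09-fold lower. Ccl1, a ligand of CCR8, had 8 UMIs (24.2, 8.18 and 21.6 CPM against 411, 327 and 193 CPM), a log2 difference of -4.45 ± 0.32. Xcl1 had 1 UMI, 14.4-fold lower with an interval of 2.57 to 570. Other large falls by the same rule were those of St8sia1, Dpp4, Tmem71, Chn2 and Rassf2, each with 1 or 2 UMIs in members, and of Tubb2a, whose near-identical paralogs make its count uncertain (-3.17).

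Genes of the follicular helper programme fell in part. Of 27 tested, 12 fell and none rose, with a median of -1.06 (-0.72 with genes at their bound). With sums of 5 or more cells, which bring in mouse 3, 8 of 26 fell and none rose (median -0.74). The summed level of the list was 4343, 4147 and 8245 CPM in members and 9325, 9340 and 9473 CPM in the reference. Mouse 3 thus lay closest to its reference. Tcf7, which encodes the helper regulator TCF-1, stood at 88.8, 106 and 281 CPM against 410, 439 and 434 CPM (-2.26 ± 0.22, adjusted p = 4.6e-22). Tnfsf8 (CD30 ligand) fell by 2.04, Sostdc1 by 2.85 and Cd40lg, the main helper signal to B cells, by 1.60 on the log2 scale. Cxcr5 stood at 60.5, 24.5 and 216 CPM against 98.2, 120 and 113 CPM. It was called in mice 1 and 2 (-1.26, adjusted p = 0.0028) and not once mouse 3, which was higher than its reference, entered (-0.72, adjusted p = 0.22). Bcl6, with 8 UMIs, Pdcd1 and Gata3 did not pass the test in either fit, nor did Prdm1, with 5 UMIs, in mice 1 and 2.

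Depth and cycling moved with the groups, so the contrast was refitted with each held back. With 3 reference cells per member, nearest in UMIs within the mouse, 34 of 3669 genes passed (0.927%), 21 higher (0.572%) and 13 lower (0.354%), all 34 among the 453 and in the same direction, and fewer genes could be tested. Without cycling cells 70 of 7949 passed (0.881%), 37 higher (0.465%) and 33 lower (0.415%), and the median over all genes was -0.26. Of these 70, 60 were among the 453, all 60 in the same direction. With both, 74 of 1593 passed (4.65%), 58 higher (3.64%) and 16 lower (1%), of which 44 were among the 453 and 43 of those had the same direction. In the regulatory core 7 of 14 tested rose at matched depth and 7 of 18 without cycling cells, and none fell. Of the helper cytokines 7 of 13 fell and none rose at matched depth. Without cycling cells 9 of 18 fell and 2, Il10 and Areg, rose. In the follicular list 5 of 23 and 7 of 27 fell and none rose. Il2ra was 2.86 at matched depth and 2.60 without cycling cells (adjusted p = 0.014 and 0.037), and Il2 was -2.74 and -3.71. Il4 was -1.78 and -1.20, and called in both. Several single genes lost their call at matched depth while keeping their direction: Il10 (1.34, adjusted p = 0.127), Il1r2 (1.85, 0.064), Lrrc32 (5.24, 0.0544), Cish (1.34, 0.186), Il2rb (1.02, 0.138), Sostdc1 (-1.67, 0.265) and Cxcr5 (-0.88, 0.45). Without cycling cells Il10, Il1r2, Cish and Il2rb were called and Lrrc32 was not (3.99, adjusted p = 0.224).

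Calls in other groups were lost. Of 25 proliferation genes, 14 rose and none fell in the 2-mouse fit, led by Ccnb1 (1.55), Ube2c (1.4) and Cdk1 (1.21). None of the 25 passed at matched depth, where Ube2c was 0.32 and Ccnb2 -0.01. The list median was 0.76 in the 2-mouse fit and -0.14 at matched depth. Cycling cells were 33.3% of members and 33.9% of the reference matched for depth. Of 27 genes of acute stimulation, such as Cd69 (-0.88), Tnfaip3 (-1.02), Jun (-0.83) and Nfkbia (-0.60), 15 fell and Myc rose. None of 25 passed at matched depth, where the list median was -0.12, against -0.58 in the 2-mouse fit. Without cycling cells 1 rose and none fell of 27, with a median of -0.33 against -0.26 over all genes tested. Only 0.927% of all genes passed at matched depth and 0.881% without cycling cells. The lack of calls in these lists thus does not by itself show that a difference was gone.

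**Figure D3:**
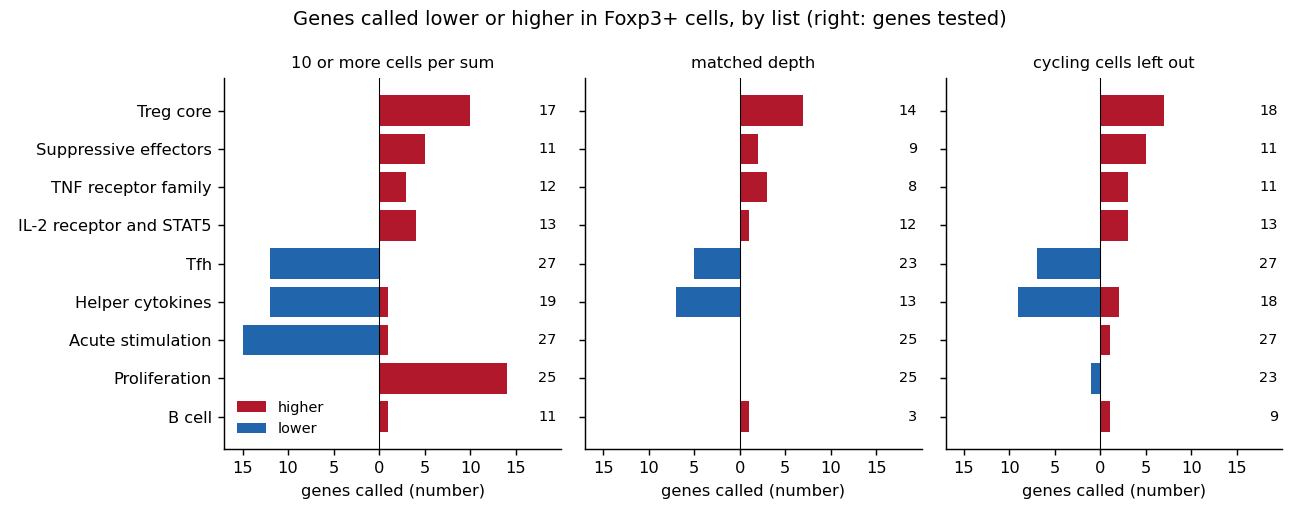
Bars give the number of genes called higher (right) or lower (left) in Foxp3+ cells at an edgeR adjusted p under 0.05, by gene list, in 3 fits, with the number tested at the right edge. The regulatory core and helper cytokine bars persist in all 3 fits. The 14 proliferation rises and 15 stimulation falls called in the first fit have no bar at matched depth, where 0.927% of all genes passed.

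Single cells held much of some rises. Fabp5, a fatty acid binding protein, had 95 of its 142 UMIs in the member with 50750 UMIs, and its log2 difference of 2.85 was 1.68 without cells above 20000 UMIs. Lyz2, a myeloid gene that was called (1.04), had 124 of 125 UMIs in 1 member, and mice 2 and 3 had none. Axl (2.94), C2cd4b (2.55), Itih5 (3.87), Zcchc18 (2.55), Gna15 (2.21), Slc16a3 (2.32) and D1Ertd622e (2.10) completed the 12 largest rises among called genes higher in 3 of 3 mice with a mean of 20 CPM or more. Each had 10 to 30 UMIs in members, and 13 of the 30 of Slc16a3 were in the member with 50750 UMIs. Lrrc32, Ccr8, Ccr2 (2.36) and Socs2, with mouse 3 at 0, are outside that rule.

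Markers of other cell types were counted in the same sums. Of 11 B-cell genes tested only Ighm rose, at 896, 900 and 647 CPM against 357, 306 and 354 CPM (1.31 ± 0.14). The 14-gene B-cell list, which includes Ighm, summed to 971 to 1464 CPM in members and to 911 to 985 CPM in the reference. This sum was higher in members of every mouse, with 2 genes of the list at 0 in members. Without Ighm, the list summed to less in members than in the reference of every mouse. The median log2 difference of the 11 tested genes was -0.44. The 10-gene myeloid list summed to 521, 0 and 21.6 CPM in members and to 147, 114 and 89.9 CPM in the reference, with 6 genes at 0 in members and Lyz2 the 1 called. The CD8 list summed to at most 8.07 CPM in members and the gamma-delta list to 0. The part of B-cell RNA in the Ighm rise was not tested.

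Regulatory cells of follicles differ in CD25, so the members were split by Il2ra, 25 with and 38 without a UMI. No mouse-level test was possible at 10 cells per sum, and with 5 or more cells (added after the data were seen, mice 1 and 2) 6 of 1441 genes passed (0.416%), all lower in Il2ra+ members and none higher (0%). Other settings of this split gave higher calls too: 16 of 34 without the mouse block, 5 of 23 without cells with B-cell UMIs and 30 of 46 with no low-count filter, while both DESeq2 calls were lower. The 6 were Cxcl2, Tnfsf8, Junb, Malat1, Fosb and Cd40lg, and 252 genes had an unadjusted p under 0.05. Cd40lg stood at 284 and 161 CPM in Il2ra+ against 698 and 712 CPM in Il2ra- members of mice 1 and 2 (log2 difference -1.61 ± 0.30, adjusted p = 0.049). Il2ra+ members were deeper (median 6319 against 3921 UMIs) and 13 of 25 were cycling, against 8 of 38. Taking the Il2ra- members nearest in UMIs left 3 calls, all lower, but did not even out depth: in mouse 1 the medians were 7864 against 5511 UMIs and in mouse 2 they were 8046.5 against 4749.5. The part of depth and cycling in these calls was not tested. Ctla4, Ikzf2 and Il10 were not among the 6.

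The IL-4 reporter sort, from other mice with another capture chemistry and another gate, was searched by the same rule. There 22 cells met the rule (10, 6 and 6 per mouse), 0.657 ± 0.204% of T cells (SD, n = 3 mice). No Foxp3 UMI was found in 321 Cd79a+ cells. This allows up to 1.18% at the upper Wilson bound, which is above the T-cell share. With sums of 5 or more cells, 54 of 9618 genes passed (0.561%), 28 higher (0.291%) and 26 lower (0.27%). RLE size factors gave 33 higher and 15 lower and moved the median log2 difference of all genes from -0.25 to -0.08. The fit without the mouse block called 20 in all. Without mouse 1 the count was 14 and without mouse 2 it was 88. Here 1 cell of mouse 2 held 34901 of that mouse's 99042 member UMIs.

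Of 20 tested genes of the regulatory core, 8 rose and none fell in this sort, with a median of 1.33. Il2ra stood at 424, 212 and 220 CPM against 55.4, 65.6 and 55.6 CPM (2.05 ± 0.33, adjusted p = 4.5e-07). Ikzf2 (2.31), Ctla4 (1.43), Tnfrsf9 (2.94), Tnfrsf18 (1.51), Tnfrsf4 (1.05) and Capg (1.5) were also called. Il1r2 (2.49) was called with mouse 2 at 0. Il21 stood at 38.5, 30.3 and 44.0 CPM against 261, 222 and 209 CPM (-2.88 ± 0.45), Il2 fell by 1.42, Tcf7 by 1.32 and Tnfsf8 by 2.68 on the log2 scale. Il4 was low in both groups (51.3, 10.1 and 0 CPM against 49.5, 51.5 and 45.8 CPM) and was not called, and Ccr8, Penk and Il10 were not called either.

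Of the 448 Tfh-sort calls tested in the reporter sort, 276 had the same direction and 33 were called there (7.37%), 29 of these in the same direction. Over all genes tested in the reporter sort 0.561% were called. The share of all genes with the same direction in both sorts was not counted, and the reporter-sort median over all genes was -0.25. Of the 51 reporter-sort calls tested in the Tfh sort, the same 33 were 64.7%, where 5.14% of all genes tested were called. Of the 33 called in both sorts, the 4 that went opposite ways were Hmgb2, Ran, Stmn1 and Top2a, higher in the Tfh sort and lower in the reporter sort. Cycling cells were 33.3% of members and 12.9% of the reference in the Tfh sort. In the reporter sort they were 18.2% and 29.0%. Top2a is among the genes that define cycling cells here, and the part of cycling in these reversals was not tested. Gzmb, the largest rise of the reporter sort by the naming rule (3.30 ± 0.27), had 195 of 260 UMIs in 1 cell. In the Tfh sort it had 2 UMIs in all members.

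**Figure D4:**
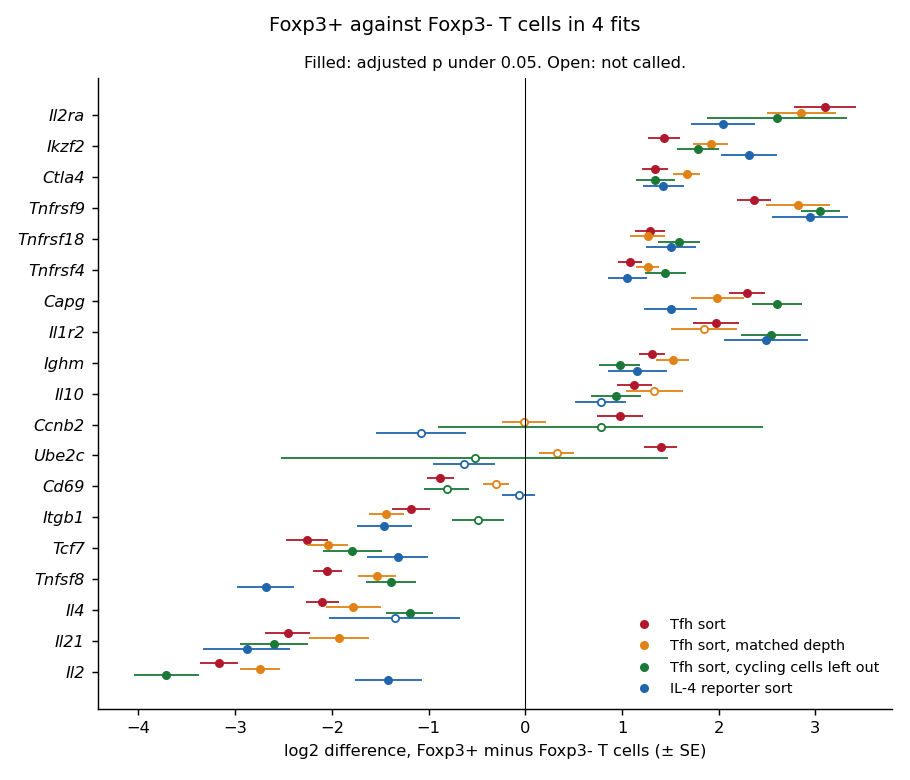
The x axis gives the log2 difference of Foxp3+ minus Foxp3- T cells with its SE (bars) for 19 genes in 4 fits. Filled points passed an edgeR adjusted p of 0.05. Il2ra, Ikzf2, Ctla4, Tnfrsf9, Tnfrsf18, Tnfrsf4, Capg and Ighm are filled and higher, and Tcf7, Tnfsf8, Il21 and Il2 filled and lower, in all 4 fits, while Ccnb2, Ube2c and Cd69 are filled in the first fit only.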

How the data were processed

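Gene expression was deposited as raw UMI counts, 1 matrix per sort, and the hashtags as raw tag counts. Cell Ranger 2.2.0 is named in the submitters' processing notes, with bcl2fastq 2.18.0.12 and 2.20.0.422, and builds mm10 and GRCm38, while the file header of the reporter sort gives 3.0.2. A cell's mouse was its top hashtag, with 10 or more counts and 3 or more times the second. UMIs were summed per mouse and group, each sum needing 10 or more cells. Counts were tested with edgeR 4.0.16 in R 4.3.3 (TMM, filterByExpr at a minimum count of 10, adjusted p under 0.05), with the mouse as block because each animal gives both sums, and with DESeq2 1.42.0 as another tool. The 6 genes of the cell rule were left out of the tested genes (and Il2ra for its split). The Il2ra split and the reporter sort could not be tested at 10 cells, so sums of 5 or more, chosen after the data were seen, are given for both. Summed depth was 46333 to 247770 UMIs per mouse in members and 2468082 to 4093470 in the reference. Doublets within a mouse were not removed. Named genes were the markers, 10 fixed genes, the 12 largest rises and falls called in the same direction in 3 of 3 mice at 20 CPM or more, and up to 4 called members of each list; the 6 largest each way were named in the reporter sort. Other genes were named after their values were seen. Members and lists were chosen with earlier results of these data known. Scripts were tested on simulated counts with a set dispersion, changing genes at 20 CPM or more. The Tfh-sort fit recovered 12% of 100 genes changed 2-fold and 71% of 100 changed 4-fold. For the reporter-sort fit with sums of 5 or more cells these were 14% and 56%. A gene that did not pass is thus not shown to be unchanged. All intervals and floors reflect counting error alone. Gene coordinates are from GENCODE M21.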

Additional observations from a re-analysis of the deposited data

Results flagged for a closer look

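Outside the rule, 8.94% of Cd8b1+ cells of the Tfh sort had a Foxp3 UMI (11 of 123, Wilson 95% interval 5.07 to 15.3%), above the 0.970% of Cd79a+ cells. Median depth was 3645 UMIs in Cd8b1+ and 2428 in Cd79a+ cells. Those Cd8b1+ cells with Foxp3 had a median of 7961 UMIs, against 3368 in Cd8b1+ cells without it, and only 1 of 11 had a Cd8a UMI. Cd4 was found in 5 of the 11, Ikzf2 in 10 and Ctla4 in 10. Thinned to 2000 UMIs the share was 1.98% (2 of 101, 0.545 to 6.93%). The thinned share of Cd79a+ cells was 0.617% (0.210 to 1.80%), and the 2 intervals overlap.

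Named genes called in at least 1 sort were searched for opposite directions between the sorts, each direction shared by all 3 mice of its sort. 4 were flagged, other genes were not searched, and the difference between sorts was not tested. Ccnb1 was 1.55 on the log2 scale in the Tfh sort and -1.54 in the reporter sort. Tnfaip3 was -1.02 and 0.044, where the fitted reporter value is close to 0. Icam1, an adhesion molecule with 10 UMIs in Tfh-sort members, was -0.29 and 2.18. Nkg7 was 1.08 in the Tfh sort, and in the reporter sort members had 0 counts against a mean of 32.5 CPM in Foxp3- T cells. The sorts differ in strain, gate, chemistry and sequencing run, which cannot be told apart. Cycling cells were a larger share of members than of the reference in the Tfh sort (33.3% against 12.9%). In the reporter sort they were a smaller share (18.2% against 29.0%), and the part of cycling in the Ccnb1 difference was not tested.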

How the results depend on the processing

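The 453 Tfh-sort calls at 10 or more cells per sum became 105 with DESeq2, 34 at matched depth and 70 without cycling cells. Alternatives chosen after the data were seen gave 121 with exactly 1 Foxp3 UMI, 74 of 1593 genes at matched depth without cycling cells, 258 without cells above 20000 UMIs and 271 with sums of 5 or more cells. RLE factors, no low-count filter, the fit with no replicate block (546), a looser hashtag rule, cells with B-cell UMIs or Il13 left out, and leaving out replicate 3 (415) kept the count within 1.5 times. Leaving out replicate 1 or 2, and requiring 2 or more Foxp3 UMIs, could not be tested at 10 cells. The 271 calls of the 5-cell fit were 66 with DESeq2, 37 at matched depth, 37 at matched depth without cycling cells, 69 without cycling cells, 84 with exactly 1 Foxp3 UMI and 434 with no replicate block, and 43 to 415 when 1 replicate was left out. The 6 calls of the Il2ra split were 34 with no replicate block, 1 with RLE factors, 46 of 10052 genes with no low-count filter, 23 without B-cell UMIs, 3 with the members nearest in UMIs (depth still differed there) and 2 with DESeq2, and with 2 mice none could be left out. The 54 reporter-sort calls were 20 with no replicate block, 19 with DESeq2, 15 at matched depth and 14 to 88 when 1 replicate was left out, and 2 or more Foxp3 UMIs could not be tested there. The mean Foxp3+ share of 2.06% was 0.383% at 2 or more Foxp3 UMIs and 0.847% after thinning. Among the 73 named genes, direction reversed for Penk with exactly 1 Foxp3 UMI (-0.075), Bcl6 at 2 or more Foxp3 UMIs (-0.21) and without replicate 2 (-0.35), and Gata3 at matched depth (0.14) and without Il13+ cells (0.029). Pdcd1 reversed at matched depth without cycling cells (0.33, and 0.27 with 5 or more cells) and without cycling cells at 5 or more cells (0.037). Ccnb2 reversed at matched depth (-0.014, and -0.049 with 5 or more cells). Without cycling cells Ube2c was -0.52, and Ccnb1 (-6.74) and Cdk1 (-6.16) were fitted on few or no counts. Lyz2 was -1.94 and -2.88 with DESeq2 at 10 and 5 cells, -10.97 at 2 or more Foxp3 UMIs and -10.13 without replicate 1, where members had no counts. The cause of these shifts was not tested, except that matched depth and sums of fewer cells test fewer genes.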

Other observations

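Chemokine receptors and adhesion genes split in both directions in the 2-mouse fit of the Tfh sort. Of 21 tested 4 rose and 7 fell, where 2.24% of all genes tested rose and 2.91% fell. With sums of 5 or more cells 4 of 21 rose and 6 fell. Fewer were called at matched depth, where 1 of 12 rose and 2 fell, and without cycling cells, where 2 of 21 rose and 2 fell. Ccr2 rose in mice 1 and 2 (2.36) with 0 UMIs in mouse 3, and was also called higher in the reporter sort (1.54). Itgb1, the integrin β1 chain, stood at 149, 196 and 410 CPM in Foxp3+ cells against 338, 369 and 403 CPM with mouse 3 just above its reference. It was called lower in both sorts (-1.18 and -1.46). Itgb8, an integrin chain that activates latent TGF-β, stood at 56.5, 49.1 and 0 CPM against 11.7, 9.04 and 7.29 CPM (2.22). Klf2, which keeps T cells in circulation, stood at 226, 213 and 129 CPM against 361, 329 and 348 CPM (-0.77) and was -0.03 at matched depth.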
